A study of Mus musculus with 6 samples.

Results

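The fibroblast growth factor (FGF) genes examined here were *Fgf1*, *Fgf2*, *Fgf7*, *Fgf9*, *Fgf10*, *Fgf11*, *Fgf13*, *Fgf16*, *Fgf18* and *Fgf21*. They were taken by symbol from a count table of 27179 genes, in which all 10 were present, and all 10 passed the filter on low counts. Bulk RNA-seq was available for CD34hi and CD34lo fibroblasts (labelled CD34 high and CD34 low) of the mammary gland of FVB/N mice in puberty, the only statement of age in the labels, with no transgene or treatment stated. The cells were sorted as lineage-negative, CD24-negative, Pdgfrα-positive cells that differed in surface CD34. Both populations were taken from each of 3 pools of 2 mice (3 libraries for CD34hi and 3 for CD34lo). A library is thus an average over 2 animals, and same-numbered libraries share their mice.

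FGFs are signalling proteins that bind FGF receptors together with heparan sulfate chains of the cell surface and matrix. In the mammary gland, FGFs made by the stroma are known to act on epithelial FGF receptors during placode formation and ductal branching, and FGF10 and FGF7, which belong to one subfamily and bind the epithelial splice form of FGFR2, are the classical stromal ligands. FGF21 works as a circulating hormone that needs the co-receptor β-Klotho, whereas FGF11 and FGF13 are FGF homologous factors, which stay inside the cell and bind voltage-gated sodium channels.

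CD34hi and CD34lo fibroblasts differed in the level of 5 of the 10 FGF genes. *Fgf2* and *Fgf18* were 8.73-fold and 4.54-fold higher in CD34hi fibroblasts, and *Fgf21*, *Fgf13* and *Fgf10* were 33.0-fold, 10.3-fold and 2.21-fold higher in CD34lo fibroblasts. In CD34hi pools 1, 2 and 3, *Fgf21* had only 21, 1 and 20 counts and *Fgf13* only 25, 8 and 30. The sizes of these 2 folds are therefore imprecise, and with 10 counts or more required in each library neither gene was tested. The other 5 genes, *Fgf1*, *Fgf7*, *Fgf9*, *Fgf11* and *Fgf16*, did not pass the test. Thus, 2 of the 10 genes were called higher in CD34hi, against 16.9% of the 15219 genes tested, and 3 were called higher in CD34lo, against 18.7% of them. Genes were called with the quasi-likelihood test of edgeR where the Benjamini-Hochberg adjusted p fell below 0.05, and 35.6% of all genes tested were called in either direction. This fit did not use the pairing of libraries by pool. With a replicate block for the pool, 6 of the 10 genes were called in edgeR (*Fgf9* as well) and in limma-voom (*Fgf16* as well). The median log2 fold change (CD34hi vs CD34lo) of the 10 genes was -0.47, and that of all genes -0.0064, while the medians of the absolute log2 fold changes were 1.09 and 0.40.

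**Figure D1:**
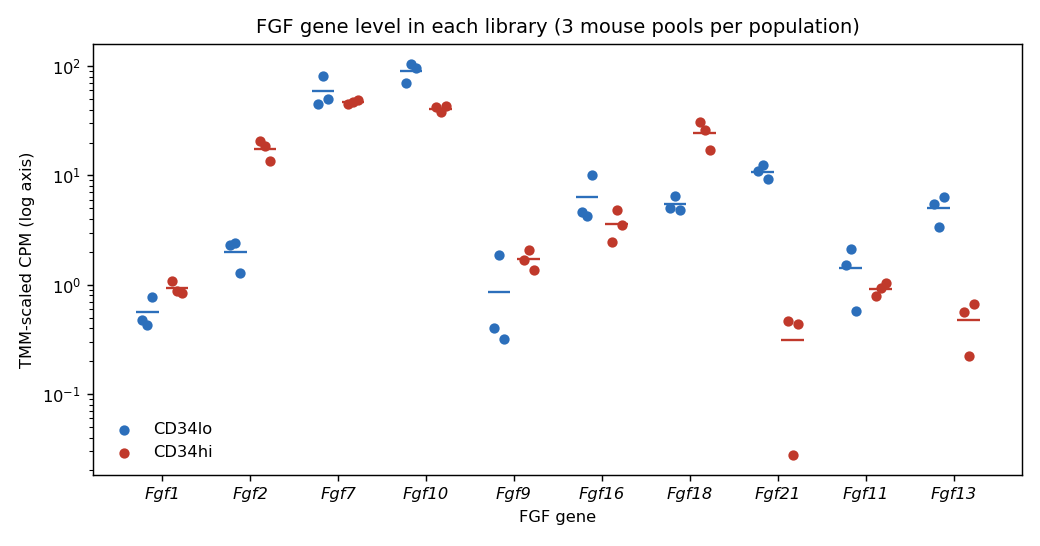
Level of each of the 10 FGF genes in TMM-scaled counts per 1000000 counts (CPM, logarithmic axis), where each point is 1 library (3 mouse pools per population) and each line the mean of a population. The CD34hi points of *Fgf2*, *Fgf18* and *Fgf1* lie above every CD34lo point, those of *Fgf10*, *Fgf21* and *Fgf13* lie below, and those of *Fgf7*, *Fgf9*, *Fgf16* and *Fgf11* are interleaved with the CD34lo points.

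Between 28764779 and 52402410 counts were assigned to genes in a library, so that 3 counts, the smallest amount taken as detectable, corresponded to between 0.0572 and 0.104 CPM, a floor that covers counting error only. *Cd34*, the gene of the sorted protein, was higher in CD34hi fibroblasts (log2 fold change 2.02, edgeR adjusted p = 9.66e-05). The 6 fibroblast markers summed to between 36800 and 43400 CPM in CD34hi and between 49000 and 55300 CPM in CD34lo libraries, with 4 of 6 higher in CD34lo and 1, *Igfbp5*, higher in CD34hi. With 3 libraries against 3, an exact permutation test of a single value cannot go below p = 0.1, and the p-values of single genes therefore come from the fit across all genes. In bulk RNA, fewer cells that express a gene and less RNA of it per cell cannot be told apart.

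The regions before the transcription start of 5 of these genes are shown so that the FGF7 subfamily pair, of which only one gene passed the test, can be set beside *Fgf18*, *Fgf21* and *Fgf13*. Each run is the 250 bases before a RefSeq start (GRCm38.p6), written 5′ to 3′ on the strand of the gene, and each start is the first base of the gene model used for counting. For *Fgf10* and *Fgf13*, the GENCODE vM21 models reach 44908 and 433635 bases further upstream, so other starts of these genes are not shown. Capitals mark, on either strand, the GC box with the letters GGGCGG, the TATA box with the letters TATAAA, and the CCAAT box.
*Fgf7* (chr2:126034408-126034657, plus strand): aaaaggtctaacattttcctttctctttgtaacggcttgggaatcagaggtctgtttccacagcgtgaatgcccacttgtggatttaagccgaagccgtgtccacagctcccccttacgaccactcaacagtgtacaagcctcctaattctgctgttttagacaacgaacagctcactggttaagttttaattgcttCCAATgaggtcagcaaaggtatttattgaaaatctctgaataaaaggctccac
*Fgf10* (chr13:118714449-118714698, plus strand): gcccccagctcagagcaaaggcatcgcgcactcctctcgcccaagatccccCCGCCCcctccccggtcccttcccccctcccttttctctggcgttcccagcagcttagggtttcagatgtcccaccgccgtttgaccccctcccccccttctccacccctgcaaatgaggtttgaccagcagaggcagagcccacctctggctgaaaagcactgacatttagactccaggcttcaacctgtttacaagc
*Fgf18* (chr11:33147401-33147650, minus strand): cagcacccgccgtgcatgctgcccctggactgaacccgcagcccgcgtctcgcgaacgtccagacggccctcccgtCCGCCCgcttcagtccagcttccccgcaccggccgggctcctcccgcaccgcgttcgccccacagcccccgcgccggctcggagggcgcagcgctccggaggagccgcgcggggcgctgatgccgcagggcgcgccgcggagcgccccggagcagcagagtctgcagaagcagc
*Fgf21* (chr7:45615491-45615740, minus strand): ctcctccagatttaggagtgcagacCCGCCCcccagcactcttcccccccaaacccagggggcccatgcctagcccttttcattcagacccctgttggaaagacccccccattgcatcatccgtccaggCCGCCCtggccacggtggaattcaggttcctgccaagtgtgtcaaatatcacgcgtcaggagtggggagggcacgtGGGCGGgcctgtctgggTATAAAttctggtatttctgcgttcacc
*Fgf13* (chrX:59134437-59134686, minus strand): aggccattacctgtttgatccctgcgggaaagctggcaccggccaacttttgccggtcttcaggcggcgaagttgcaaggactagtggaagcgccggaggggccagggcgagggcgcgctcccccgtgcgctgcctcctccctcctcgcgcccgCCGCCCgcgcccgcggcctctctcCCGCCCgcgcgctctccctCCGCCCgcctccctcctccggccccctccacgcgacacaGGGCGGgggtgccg
Starts of 8 of the 10 genes were in the RefSeq table. The *Fgf21* region held 3 GC boxes and the only TATAAA among the starts of these 8 genes, 28 bases before the start, and TATAAA was present in 12.4% of the 32851 start regions of the same length. The *Fgf13* region held 4 GC boxes, the *Fgf18* and *Fgf10* regions 1 each, and the *Fgf7* region none, but it held 1 CCAAT box. The GC box was present in 32.7% and the CCAAT box in 33.8% of all start regions. The regions of *Fgf18* and *Fgf13* were rich in CpG, with 37 and 31 CpG dinucleotides, whereas those of *Fgf10* and *Fgf7* held 8 and 6 (median of all regions, 6). These matches are a description of the letters and do not show that a factor binds there.

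The FGF1 subfamily consists of *Fgf1* and *Fgf2*, whose proteins leave the cell without a classical signal peptide. *Fgf2* (gene 14173, chromosome 3, 37348653 to 37404830) had 20.4, 18.8 and 13.5 CPM in CD34hi pools 1, 2 and 3. In CD34lo pools 1, 2 and 3 it had 2.31, 2.41 and 1.29 CPM. Every CD34hi library was at least several times above every CD34lo library. This gave a log2 fold change of 3.13 (SE, the standard error, 0.27, edgeR adjusted p = 4.44e-05), and the difference within the 3 pools lay between 2.94 and 3.35 on the log2 CPM scale.

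The *Fgf2* locus has antisense neighbours, and the library kit used does not mark strand, so that sense and antisense reads cannot be told apart where the genes overlap. *Fgf2os*, an antisense gene over the start of *Fgf2*, had 80, 71 and 115 counts in CD34hi and 3, 3 and 2 counts in CD34lo libraries. Over all libraries, *Fgf2os* had 274 counts against 2440 for *Fgf2*. *Nudt6*, a hydrolase gene on the opposite strand, whose counted 3′ end lies 153 bases beyond the end of the counted *Fgf2* model, had 2034, 1565 and 1284 counts in CD34hi and 322, 190 and 126 counts in CD34lo libraries. Both neighbours were thus higher in CD34hi fibroblasts together with *Fgf2*, with log2 fold changes of 4.81 for *Fgf2os* (adjusted p = 5.20e-05) and 2.80 for *Nudt6* (adjusted p = 5.09e-05, both from edgeR). The counted *Fgf2* model was 695 bases long, whereas the GENCODE vM21 exons of *Fgf2* cover 6782 bases, of which 5278 lie beyond the counted end and 640 are shared with exons of *Nudt6*. The part of overlapping reads in the differences of these genes was not tested.

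*Fgf1* (gene 14164, chromosome 18, 38838673 to 38918699) was close to the limit of what these libraries measure well. It had 48, 32 and 38 counts, or 1.07, 0.883 and 0.838 CPM, in CD34hi pools 1, 2 and 3. It had 26, 12 and 24 counts, or 0.480, 0.432 and 0.772 CPM, in CD34lo pools 1, 2 and 3. The populations did not overlap, as was the case for 50.1% of all genes tested, but the log2 fold change of 0.74 (SE 0.37) did not pass (edgeR adjusted p = 0.160). An antisense gene that overlaps *Fgf1*, *Gm5820*, had 89 counts in all against 180 for *Fgf1*, so that the level of *Fgf1* is uncertain.

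The FGF7 subfamily was represented by *Fgf7* and *Fgf10*, which had the highest CPM of the 10 genes in both populations. *Fgf10* (gene 14165, chromosome 13, 118714699 to 118792573) had 42.1, 37.9 and 42.8 CPM in CD34hi pools 1, 2 and 3. In CD34lo pools 1, 2 and 3 it had 69.6, 105.5 and 96.2 CPM. The CD34hi libraries were close to each other and all below the lowest CD34lo library. *Fgf10* had a log2 fold change of -1.14 (SE 0.16, edgeR adjusted p = 0.000706), with differences within pools between -1.48 and -0.72.

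*Fgf7* (gene 14178, chromosome 2, 126034658 to 126091185), also known as keratinocyte growth factor, had 44.7, 46.8 and 49.1 CPM in CD34hi and 45.3, 81.8 and 49.8 CPM in CD34lo pools 1, 2 and 3. The populations overlapped, and only CD34lo pool 2 stood clearly above the other libraries. A log2 fold change of -0.33 (SE 0.21) did not pass (edgeR adjusted p = 0.255). As a ratio of levels per kb of gene model, *Fgf10* to *Fgf7* was 0.551, 0.473 and 0.510 in CD34hi and 0.898, 0.753 and 1.13 in CD34lo pools 1, 2 and 3. The ratio was higher in CD34lo in every pool, with means of 0.511 ± 0.0390 (SD, n = 3) in CD34hi and 0.927 ± 0.190 (SD, n = 3) in CD34lo. The exact two-sided permutation test, which does not use the pools, gave p = 0.1, the smallest value it can give for 3 libraries against 3.

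*Fgf18* (gene 14172, chromosome 11, 33117430 to 33147400), a ligand of the FGF8 subfamily known for its role in bone, cartilage and lung, had 30.8, 26.0 and 16.9 CPM in CD34hi pools 1, 2 and 3. It had 4.998, 6.51 and 4.79 CPM in CD34lo pools 1, 2 and 3. The lowest CD34hi library was thus above the highest CD34lo library. This corresponded to a log2 fold change of 2.18 (SE 0.24, edgeR adjusted p = 0.000169), and the difference within pools lay between 1.81 and 2.61.

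The FGF9 subfamily genes *Fgf9* and *Fgf16* were low and varied between pools. *Fgf9* (gene 14180, chromosome 14, 58072686 to 58112720) had 1.70, 2.10 and 1.37 CPM in CD34hi and 0.406, 1.87 and 0.322 CPM in CD34lo pools 1, 2 and 3. CD34lo pool 2 lay within the CD34hi range, and the other CD34lo libraries lay below it. Its log2 fold change of 1.04 (SE 0.61) did not pass (edgeR adjusted p = 0.222). With a replicate block for the pool of mice it passed (1.34, edgeR adjusted p = 0.0398), but the adjusted p of the same block in limma-voom was 0.0503. The call of *Fgf9* depended on 1 library, since without CD34lo pool 2 the log2 fold change was 2.21 (edgeR adjusted p = 0.00369), and without both libraries of pool 2 it was 2.05 (adjusted p = 0.0167).

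*Fgf16* (gene 80903, chromosome X, 105764477 to 105776532) had 2.48, 4.86 and 3.48 CPM in CD34hi and 4.63, 4.28 and 10.0 CPM in CD34lo pools 1, 2 and 3. CD34lo pool 3 was the highest library, and in pool 2 the order of the populations was turned. For this gene the log2 fold change of -0.80 (SE 0.37) did not pass (edgeR adjusted p = 0.126). With the replicate block its adjusted p was 0.0665 in edgeR and 0.0368 in limma-voom.

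The hormone gene *Fgf21* (gene 56636, chromosome 7, 45613890 to 45615490) showed the largest difference of the 10 genes. It had 593, 343 and 286 counts, or 10.9, 12.3 and 9.19 CPM, in CD34lo pools 1, 2 and 3. In CD34hi pools 1, 2 and 3 it had 21, 1 and 20 counts, or 0.470, 0.0276 and 0.441 CPM, so that the gene was under the floor in CD34hi pool 2. No library of one population came near the other. Its log2 fold change was -5.04 (SE 0.50, edgeR adjusted p = 0.000102), with differences within pools between -7.32 and -4.23, and it was -4.46 without pool 2. No gene of the table overlaps *Fgf21*.

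The intracellular factor *Fgf13* (gene 14168, chromosome X, 59062150 to 59134436) was also higher in CD34lo fibroblasts, at 5.42, 3.38 and 6.37 CPM in pools 1, 2 and 3. It had 25, 8 and 30 counts, or 0.559, 0.221 and 0.662 CPM, in CD34hi pools 1, 2 and 3. The difference was similar in all pools, between -3.66 and -3.17 on the log2 CPM scale, and the log2 fold change was -3.37 (SE 0.41, edgeR adjusted p = 0.000303). The counted model begins at 1 of the 4 RefSeq starts of the gene, and the GENCODE vM21 model reaches 433635 bases further upstream, outside the counted span.

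*Fgf11* (gene 14166, chromosome 11, 69798202 to 69801625), the other FGF homologous factor, had 0.783, 0.938 and 1.04 CPM in CD34hi and 1.53, 2.12 and 0.579 CPM in CD34lo pools 1, 2 and 3. The CD34lo libraries lay on both sides of the CD34hi libraries. The log2 fold change of -0.61 (SE 0.45) did not pass (edgeR adjusted p = 0.325). Its counted model was 678 bases long, against 3044 bases of GENCODE vM21 exons.

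**Figure D2:**
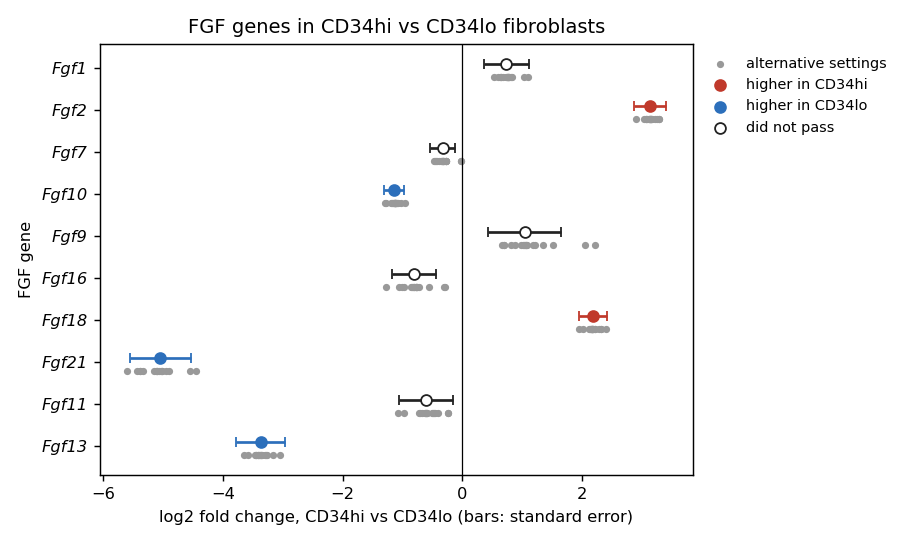
Log2 fold change of each FGF gene (CD34hi vs CD34lo, horizontal axis) with its standard error. Filled points passed the adjusted p-value threshold, and the small grey points beneath give the same value under up to 18 alternative settings. *Fgf2* and *Fgf18* lie to the right, *Fgf10*, *Fgf13* and *Fgf21* to the left, and no gene changes side under any setting.

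Levels of different genes were compared per kb of the counted gene model. In CD34hi fibroblasts, *Fgf2* (25.3 ± 5.18 CPM per kb, SD, n = 3), *Fgf18* (22.6 ± 6.49) and *Fgf7* (17.5 ± 0.810) formed the top of the order. The ranges of *Fgf2* and *Fgf18* overlapped, as did those of *Fgf18* and *Fgf7*, and *Fgf10* followed with 8.95 ± 0.583 CPM per kb. In CD34lo fibroblasts, *Fgf7* (22.1 ± 7.46 CPM per kb) and *Fgf10* (19.8 ± 4.08) led with overlapping ranges. *Fgf21* (11.4 ± 1.66), *Fgf18* (5.0 ± 0.864) and *Fgf2* (2.88 ± 0.893) followed without overlap between these neighbours. *Fgf9* and *Fgf1* had at most 0.507 CPM per kb in any library, and *Fgf21* and *Fgf13* at most 0.496 in any CD34hi library. The order rests on the counted models, which were shorter than the GENCODE vM21 exons for every gene but *Fgf16* (3040 against 1645 bases). The counted model had 695 of 6782 bases for *Fgf2*, 678 of 3044 for *Fgf11* and 2494 of 4019 for *Fgf13*. For *Fgf7* the lengths were 2672 and 3248 bases, and for *Fgf1* 3909 and 5463 bases.

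The 8 genes whose proteins act outside the cell (all but *Fgf11* and *Fgf13*) summed to 85.7, 79.1 and 64.9 CPM per kb in CD34hi and to 53.4, 78.1 and 59.2 CPM per kb in CD34lo pools 1, 2 and 3. The sum was higher in CD34hi in 3 of 3 pools, with nearly equal values in pool 2, but the ranges of the populations overlapped, and the exact two-sided permutation test, which does not use the pools, gave p = 0.2. The make-up of the sum differed. *Fgf2* and *Fgf18* made up 32.8% ± 2.43 and 29.1% ± 4.66 (SD, n = 3) of it in CD34hi, and 4.60% ± 1.55 and 7.91% ± 0.622 in CD34lo fibroblasts. *Fgf10* and *Fgf21* made up 31.2% ± 3.79 and 18.2% ± 2.92 in CD34lo, and 11.9% ± 2.17 and 0.444% ± 0.360 in CD34hi fibroblasts. The share of *Fgf7* was between 19.5% and 28.3% in CD34hi and between 31.5% and 39.2% in CD34lo libraries. Shares of 1 sum depend on each other, so these values restate the levels and were not tested separately. They also rest on the counted models, and that of *Fgf2* has 695 of 6782 bases. By mean CPM, which is not scaled by length, *Fgf7* (46.9), *Fgf10* (40.9) and *Fgf18* (24.6) were above *Fgf2* (17.6) in CD34hi fibroblasts.

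**Figure D3:**
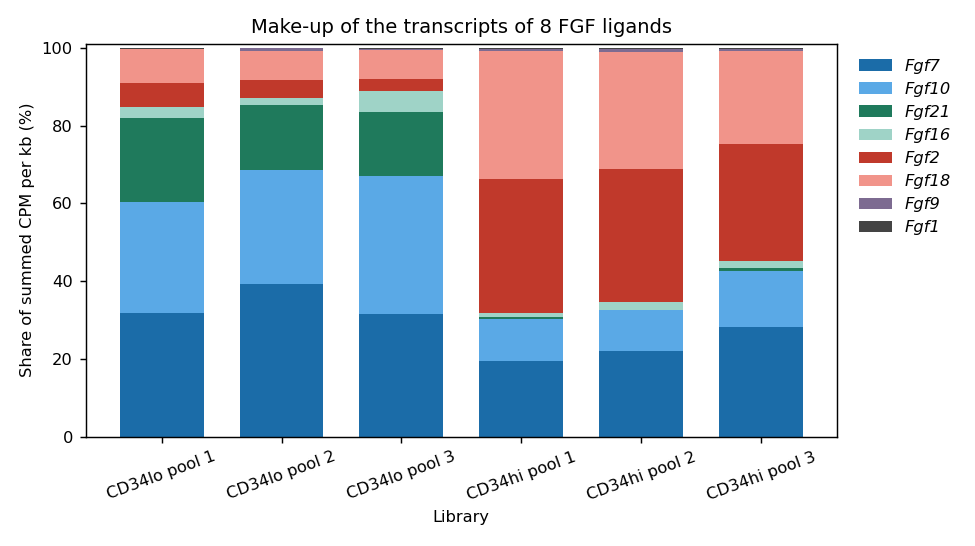
Share (%) of each of 8 FGF genes in their summed CPM per kb of gene model, with 1 bar for each library and 1 colour for each gene. *Fgf7*, *Fgf10* and *Fgf21* fill most of the 3 CD34lo bars, whereas *Fgf2* takes the largest share, between 30.0% and 34.3%, in each of the 3 CD34hi bars. In CD34hi pool 1 the share of *Fgf2* is 34.3% against 33.1% for *Fgf18*, and this order depends on the counted gene models.

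Of the remaining 12 *Fgf* genes, 5 passed the filter on low counts. *Fgf12*, a further FGF homologous factor, and *Fgf23*, a hormone of phosphate balance, were called higher in CD34lo at low levels, with log2 fold changes of -1.98 and -2.25 (edgeR adjusted p = 0.0113 and 0.0449). *Fgf23* lost its call in 7 of 17 alternatives and *Fgf12* in 2 of 17, all of them fits with fewer libraries or fewer counts. *Fgf14*, *Fgf17* and *Fgf20* did not pass, and the other 7 genes were too low to be tested.

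The other genes of the pathway were described by role. The lists were drawn up from general knowledge of FGF signalling, but with earlier results of these data known. Their shares of called genes are thus descriptive and were not tested. Each count can be read against all genes tested, of which 16.9% were called higher in CD34hi, 18.7% higher in CD34lo and 35.6% in either direction. The share called in either direction was 80% for the tested receptors and co-receptors and 100% for the 4 tested carrier and binding proteins. It was 68.4% for the heparan sulfate enzymes, 20% for the signal transducers and 81.8% for the response and feedback genes, so that the signal transducers lay below the share over all genes. Of 7 receptors and co-receptors, 5 were tested, 1 was higher in CD34hi and 3 were higher in CD34lo. *Fgfr1* had 664.9 ± 36.4 CPM in CD34hi and 254.7 ± 38.7 CPM in CD34lo fibroblasts (SD, n = 3, log2 fold change 1.38), whereas *Fgfr2*, *Fgfr3* and the decoy-like receptor gene *Fgfrl1* had log2 fold changes of -2.21, -2.87 and -0.89. *Klb*, which encodes β-Klotho, had 0.541 ± 0.247 CPM in CD34hi and 0.713 ± 0.353 CPM in CD34lo fibroblasts and did not pass.

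Among carrier and binding proteins, 4 of 5 genes in the table were tested, of which 3 were higher in CD34hi and 1 in CD34lo. *Flrt3* and *Flrt2*, which encode membrane proteins that can bind FGF receptors, had log2 fold changes of 2.08 and 1.92. *Flrt1* had one of -2.67, at under 1 CPM on average in both populations. Of 23 enzymes that build or trim heparan sulfate chains, 19 were tested, and 9 were higher in CD34hi and 4 in CD34lo. *Glce*, an epimerase of the chain, had a log2 fold change of 2.31, and the sulfotransferase genes *Hs3st6* and *Hs3st5* had values of -6.49 and -3.65. *Hs3st6* had 11, 1 and 1 counts in CD34hi pools 1, 2 and 3, so that it was under the floor in pools 2 and 3. In CD34lo pools 1, 2 and 3 it had 827, 39 and 358 counts, an uneven level, and its adjusted p in limma-voom was 0.0467. *Hs3st5* lost its call without pool 1 (adjusted p = 0.0718) or pool 3 (adjusted p = 0.0840, both from edgeR).

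Of 10 intracellular signal transducers, all tested, 1 was higher in CD34hi and 1 in CD34lo, with *Shb* at 0.69 and *Gab1* at -0.51. Of 12 response and feedback genes, 11 were tested, and 8 were higher in CD34lo. *Dusp6*, a phosphatase of ERK, *Etv4*, a transcription factor, and *Spry1*, a Sprouty inhibitor, had log2 fold changes of -3.91, -3.88 and -3.59. The level of *Etv4* was uneven in CD34lo, at 36.9, 6.76 and 23.9 CPM in pools 1, 2 and 3 (SE of the log2 fold change 0.59). *Spry2*, named after its value was seen as the only gene of this list higher in CD34hi, had one of 2.08. These genes respond to several receptor tyrosine kinases, and no ligand was perturbed here.

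**Figure D4:**
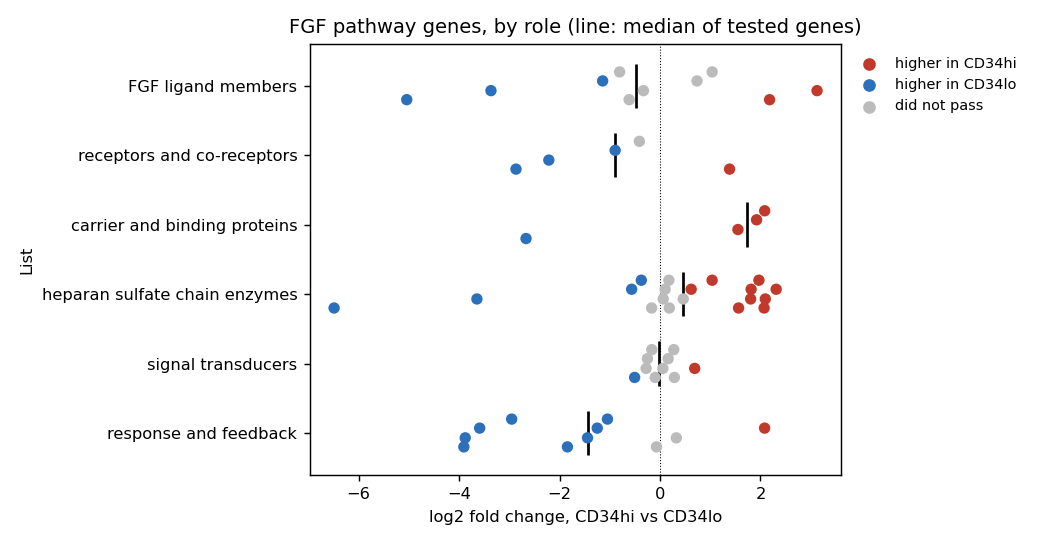
Log2 fold change (CD34hi vs CD34lo, horizontal axis) of every tested gene in 6 lists, with 1 point per gene coloured by its call and a line at the median of each list. The 10 FGF genes spread to both sides, most response and feedback genes lie to the left (median -1.44), and the signal transducers lie near 0 (median -0.02).

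Markers of other cell types moved between the populations as well. The 6 macrophage markers summed to between 2.93 and 3.22 CPM in CD34hi and between 27.7 and 48.8 CPM in CD34lo libraries, most of it *Fcgr2b*, and 1 of 3 tested was higher in CD34lo. The 5 muscle markers summed to between 2.04 and 3.31 CPM in CD34hi and between 23.3 and 43.6 CPM in CD34lo libraries, most of it *Myh4*, with 2 of 3 tested higher in CD34lo. The 5 adipocyte markers summed to at most 1.81 CPM in any library, and *Plin1*, the only one tested, was higher in CD34lo. The 5 endothelial markers summed to between 535 and 697 CPM in CD34hi and between 55.2 and 97.1 CPM in CD34lo libraries, most of it *Tek*, with 2 of 5 higher in each population. The 7 epithelial markers summed to between 34.7 and 38.8 CPM in CD34hi and between 33.0 and 41.9 CPM in CD34lo libraries, and 1 of 7 was called, higher in CD34lo. The 5 pericyte markers summed to between 134 and 190 CPM in CD34hi and between 141 and 219 CPM in CD34lo libraries (1 of 5 higher in CD34hi, 3 in CD34lo). The 5 Schwann cell markers summed to between 42.7 and 52.8 CPM in CD34hi and between 22.3 and 28.3 CPM in CD34lo libraries (1 of 5 higher in CD34hi, 3 in CD34lo), and both keratinocyte markers were higher in CD34hi, with sums of 14.3 to 19.9 CPM against 3.60 to 7.12 CPM. No marker was at 0 in all libraries, *Myog* was at 0 in every CD34hi library, and the part of these cell types in the levels of the FGF genes was not tested.

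By the nearness of their profiles over the 6 libraries, measured as the root mean square difference of centred log2 CPM, *Angpt2*, *Shc4* and *Col13a1* were most like *Fgf21* among 8873 genes with a mean log2 CPM of at least 3, with differences of 0.594, 0.665 and 0.682. Their log2 fold changes were -4.94, -5.17 and -5.51. For *Fgf7*, the gene with the highest mean level per kb over both populations, *Thada*, *Plekha5* and *Tcp11l2* were nearest, with differences of 0.0684, 0.0779 and 0.0909.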

How the data were processed

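Sorted cells were used for TruSeq RNA v2 libraries, which do not mark strand, sequenced on an Illumina NextSeq. The authors aligned reads to GRCm38/mm10 and used Rsubread for counting, and the deposited values are raw read counts of each gene without normalization. The annotation used, the strand setting and the handling of reads with several matches are not given in the sources used here. Symbols were matched by gene identifier to RefSeq (GRCm38.p6) for 25275 of 27179 genes.

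The main fit used edgeR 4.0.16 in R 4.3.3 (filterByExpr by population, TMM, quasi-likelihood test of CD34hi vs CD34lo on 6 libraries, Benjamini-Hochberg threshold 0.05), and 15219 genes were tested. Each SE is |log2 fold change| over the root of the F statistic. CPM used TMM-scaled library sizes, and log2 CPM a prior count of 2. The biological coefficient of variation was 19.7%. Simulated counts for this comparison (15051 genes tested) gave 99 of 100 changes of 2 and 59 of 100 changes of 1 on the log2 scale, and 6 of 164 calls were false. The simulation gave every gene the same dispersion, had no pool effect and changed far fewer genes than were called here. It checks that the fit works, and its rates are not the power or error rate of the real comparison.

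Same-numbered libraries come from 1 pool of mice, per the labels, and the correlations across genes of their deviations from the group means were 0.279, 0.0844 and 0.243 for pools 1, 2 and 3. Libraries of different pools gave values from -0.279 to 0.0681, so that pool 2 stood little above them. Replicates differed beyond sampling noise, with chi-square values per degree of freedom from 22.3 upwards. Alternatives were limma-voom (limma 3.58.1), DESeq2 1.42.0, RLE or upper-quartile scaling, no low-count filter, 10 counts or more in each library, a replicate block in edgeR and limma-voom, thinning to 28764779 counts, and omission of single pools and libraries.

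Named were all 10 FGF genes, genes that overlap them or lie close by, tested *Fgf* genes, *Fgfr1*, *Fgfr2* and *Fgfrl1*. Also named were the 3 called genes with the largest change in each pathway list, and the 3 genes nearest in profile to *Fgf7* and *Fgf21*. *Fam227b*, on the opposite strand over *Fgf7*, had 22 counts in all against 12197 for *Fgf7* and was not tested. *Mir504*, within *Fgf13*, had 0 counts. *Klb*, *Spry2*, *Cd34* and the single markers were named after their values were seen. The FGF genes and the lists were chosen with earlier results of these data known. *Anos1* was not analysed here.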

Additional observations from a re-analysis of the deposited data

How the results depend on the processing

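All 10 FGF genes kept their direction in every alternative that gave a value, and in 174 of 178 comparisons they kept their side of the threshold. The exceptions, in all of which the gene became called, were *Fgf9* with the replicate block in edgeR, without pool 2 and without CD34lo pool 2, and *Fgf16* with the replicate block in limma-voom. The replicate block thus gave 6 called FGF genes in either tool instead of 5 (6161 of all genes in edgeR and 6418 in limma-voom instead of 5411), and changed no other call of an FGF gene. Under the stricter filter (10 counts or more in each library), 3 FGF genes were called, 1 of them higher in CD34lo, since *Fgf21* and *Fgf13* were then not tested. The log2 fold change over all alternatives lay between 2.90 and 3.29 for *Fgf2*, 1.95 and 2.40 for *Fgf18*, -1.30 and -0.96 for *Fgf10*, -5.60 and -4.46 for *Fgf21*, and -3.65 and -3.04 for *Fgf13*.

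When 1 pool or 1 library was omitted at a time, the number of FGF genes called was 5 or 6, and the number of all genes called ranged from 3468 to 5236 (higher in CD34hi, 1608 to 2456, and higher in CD34lo, 1860 to 2780), with 3468 without pool 1. Without pool 1, 1608 genes were higher in CD34hi and 1860 in CD34lo, and without pool 2, 1656 were higher in CD34hi. The cause of these changes was not tested beyond the smaller number of libraries. Under upper-quartile normalization 42.2% of the calls were higher in CD34hi, against 47.5% with TMM.

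Among 17 other named genes and 301 comparisons, 285 had an unaltered call, 16 lost it and none turned. *Fgf23* lost it with thinned counts (adjusted p = 0.0652), without pool 1 (0.125) or 2 (0.0954), without CD34hi pool 1 (0.100) or 3 (0.0791) and without CD34lo pool 1 (0.0734) or 2 (0.146). *Fgf12* lost it without pool 2 (0.106) or CD34hi pool 2 (0.0507), *Shb* without pool 2 (0.0700) or CD34hi pool 1 (0.0601) or 2 (0.0514), and *Gab1* without pool 1 (0.101) or 2 (0.0719), all from edgeR. In CD34hi libraries, *Fgf1*, *Fgf9*, *Fgf11*, *Fgf13* and *Fgf21* had at most 76 counts each, which limits the precision of their values.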
